A study of Mus musculus and Homo sapiens with 20 samples.

Results

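The genes described here were 8 transcription factors of the erythroid and megakaryocytic lineages, Gata2, Tal1, Lmo2, Klf1, Gfi1b, Nfe2, Zfpm1 and Lyl1, taken by symbol from the 21938 protein-coding genes annotated on mm10 and, for the human orthologues, from the 20033 on hg38. Each was described by the percent of its gene span, and of the window of 1 kb on each side of its annotated start, that lay under called peaks of H2AK119ub or H3K27me3. The peaks came from CUT&Tag, in which a transposase held at an antibody tags the DNA around a histone mark. There were 20 libraries, 2 in each of 10 groups. Of these, 16 were from the mouse, with either mark in wild-type (WT) or Tet2 knockout (KO) cells that were embryonic stem (mES) cells or blood stem and progenitor cells (HSPCs). The other 4 held H2AK119ub from human K562 cells, in which MBD6 was targeted by siRNA (siMBD6) or which were given the control siRNA (siControl).

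The HSPCs were bone marrow cells of mice 6 to 8 weeks old, depleted of lineage-positive cells and then enriched for c-Kit on magnetic beads. The study's mice were C57BL/6, with Tet2-/- animals backcrossed to that strain. The labels do not say whether animals were pooled, nor whether the HSPC libraries were made before or after the suspension culture that the protocol also describes. The WT and Tet2-/- mES cells were a single line each, kept with serum, LIF and inhibitors of GSK3 and MEK, so a difference between them cannot be told apart from a difference between lines. K562 is a human leukaemia line with erythroid and megakaryocytic features. The growth text of the labels mentions puromycin. The methods of the study give it for K562 lines with a hairpin against MBD6 or its control, not for K562 otherwise. Whether the cells of these siRNA libraries were grown with it is therefore unclear. The labels do not state the TET2 status of the K562 cells. Nor do they say whether the libraries of a group came from separate animals or cultures, so p-values measure only the spread between these libraries.

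H2AK119ub is placed by Polycomb repressive complex 1 and H3K27me3 by Polycomb repressive complex 2, and in mES cells both commonly lie over genes that direct later lineages. The 8 factors act together in blood. Tal1 and its relative Lyl1 bind E-box DNA with E-protein partners, Lmo2 bridges them to a GATA factor, and Gata2 fills that place in stem and progenitor cells. Zfpm1, also called FOG1, is the GATA cofactor, Klf1 drives globin and other red cell genes, Gfi1b is a repressor needed for red cells and platelets, and Nfe2 activates genes of late platelet formation. These genes are known to be silent in mES cells and to be used in HSPCs and K562, but expression was not measured in these files.

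The lists held 85098 to 167326 peaks on assembled chromosomes and covered 132.1 to 259.9 Mb per library. They give positions only, so the read depth of a library is unknown and a longer list cannot be told apart from a wider mark. In every library the most common peak width was 501 bp, which is 25.0% of a start window, and the shortest gap between peaks was 499 bp. A window covered over 25.0% is thus what a single shortest peak gives. Positions do not measure transcripts either, so loss of Tet2 or MBD6 was not checked here. Peaks covered 0% to 2.36% of the Tet2 span in the 16 mouse libraries. At the Tet2 start window H2AK119ub covered 0% in the mES libraries, 0% and 32.6% in HSPC WT, and 61.0% and 68.1% in HSPC KO. At the MBD6 start window it covered 0% in both siControl libraries and 25.0% and 40.8% in siMBD6. The cell labels were read against promoters of marker genes, as a description only. H3K27me3 peaks touched 1 to 3 of 6 mES marker promoters in mES libraries and 6 of 6 in HSPC libraries, where Pou5f1 and Nanog were covered over 100%. They touched 4 to 5 of 6 HSPC marker promoters in mES libraries and 4 of 6 in HSPC libraries. The HSPC label was thus not set apart by how many of these promoters were touched. The covered share was lower in HSPCs without overlap at 3 of the 6 HSPC markers and higher at 0. At the 6 mES markers it was higher in HSPCs at 5 and lower at 0. Over all genes 8.70% of start windows were lower and 22.8% higher.

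The start regions themselves differed widely in CpG content, the dinucleotide that Polycomb-bound promoters of mES cells are known to be rich in. The window of 1 kb on each side of the start held 195 CpG in Zfpm1 and 103 in Tal1, with Gata2 between them, against a median of 61 over all mm10 genes. The other 5 factors lay below that median, with 45 in Lyl1, 38 in Klf1, 28 in Gfi1b, 22 in Nfe2 and 19 in Lmo2. The RefSeq promoter table for GRCm38.p6, which gives 250 bases before and 50 after a start, matched 6 of the 8 factors, Lmo2 and Nfe2 being the others. The promoters of Gata2, Tal1 (the first of its promoters in the table) and Gfi1b are shown 5′ to 3′ with each CpG in capitals. They run from CpG-dense to the median CpG count of the promoter table. All of each stretch lay under H2AK119ub peaks in every mES library.
Gata2, chr6:88193641-88193940, plus strand: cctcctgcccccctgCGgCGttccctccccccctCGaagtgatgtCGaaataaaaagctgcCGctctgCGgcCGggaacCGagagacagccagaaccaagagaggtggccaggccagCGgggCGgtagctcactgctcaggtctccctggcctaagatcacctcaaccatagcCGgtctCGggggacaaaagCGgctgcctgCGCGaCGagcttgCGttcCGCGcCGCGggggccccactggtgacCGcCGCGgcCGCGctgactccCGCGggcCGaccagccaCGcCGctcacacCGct
Tal1, chr4:115056176-115056475, plus strand: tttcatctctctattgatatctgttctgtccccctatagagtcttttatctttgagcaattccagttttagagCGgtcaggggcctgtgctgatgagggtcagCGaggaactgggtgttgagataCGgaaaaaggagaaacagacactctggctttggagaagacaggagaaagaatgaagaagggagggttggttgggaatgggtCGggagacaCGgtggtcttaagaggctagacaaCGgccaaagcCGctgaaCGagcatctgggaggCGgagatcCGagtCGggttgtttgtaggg
Gfi1b, chr2:28621933-28622232, minus strand: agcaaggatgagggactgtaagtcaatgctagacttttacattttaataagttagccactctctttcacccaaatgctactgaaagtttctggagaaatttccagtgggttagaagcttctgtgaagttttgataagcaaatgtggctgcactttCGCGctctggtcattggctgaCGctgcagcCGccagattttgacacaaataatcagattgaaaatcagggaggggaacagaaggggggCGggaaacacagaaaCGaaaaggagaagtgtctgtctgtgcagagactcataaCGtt

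These 300-base promoters held 32 CpG in Gata2, 11 in Tal1 and 7 in Gfi1b, and the median over 32851 promoters in the table was 7. A GATA motif, AGATAA or TGATAA on either strand, was found in 18.6% of all promoters in the table. Among the 8 promoter sequences of the 6 factors, it was present in Gfi1b, in Klf1 and in the first promoter of Tal1. In the Gfi1b sequence it reads tgataa and begins at position -120 from the start, and in the Tal1 sequence it reads ttatct, on the other strand, at position -205. An E-box, searched as CAGCTG or CAGATG on either strand, was present in the second promoter of Gata2, in Klf1 and in the first promoter of Tal1, against 30.6% of all promoters. No match says only that these letters are not in these windows.

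Gata2, the GATA factor of stem and progenitor cells (ENSMUSG00000015053.14; mm10 chr6:88193891-88207032, plus strand), was the most completely covered of the 8. Its start window was covered over 100% by H2AK119ub and over 100% by H3K27me3 in all 16 mouse libraries, a rule that 337 genes, or 1.54% of those annotated, met. The peak over its start was 22.9 to 24.9 kb wide in the 4 mES H2AK119ub libraries and 20.1 to 23.9 kb in the 4 HSPC libraries. In HSPCs the uncovered part of the gene lay at its 3′ end: with the span cut into 4 equal stretches, H3K27me3 covered 100% of all but the last stretch in each HSPC library, and 82.4%, 58.4%, 85.6% and 54.1% of the last in WT 1, WT 2, KO 1 and KO 2. The second annotated start, 4.44 kb downstream, was also covered over 100% for both marks in every mouse library.

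Tal1 (ENSMUSG00000028717.12; mm10 chr4:115056426-115071755, plus strand) had H3K27me3 over 100% of its start window in all 8 mouse H3K27me3 libraries. H2AK119ub covered 74.8%, 100%, 100% and 100% of the window in mES WT 1, WT 2, KO 1 and KO 2, and 74.2%, 100%, 100% and 62.0% in the same order in HSPCs. The start of Tal1 was thus marked in both cell types, with overlapping values. The gene body differed. H3K27me3 covered 100%, 95.6%, 95.5% and 93.0% of the span in the mES libraries and 51.4%, 57.0%, 53.9% and 45.5% in the HSPC libraries. The groups did not overlap, and the loss ran along the gene: of 4 equal stretches from the 5′ end, stretch 1 was covered over 85.1% to 100% in HSPCs, stretch 3 over 15.4% to 36.2% and stretch 4 over 0% to 11.9%, whereas in mES cells stretch 4 was covered over 71.8% to 100%.

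Lyl1 (ENSMUSG00000034041.4; mm10 chr8:84701457-84704715, plus strand), a close relative of Tal1, had its whole span and its whole start window under H2AK119ub peaks in all 8 mouse libraries, although its window holds fewer CpG than the median gene. H3K27me3 covered 57.5%, 68.0%, 61.1% and 59.9% of the window in the mES libraries and 49.2%, 56.4%, 45.2% and 41.2% in the HSPC libraries, in the order WT 1, WT 2, KO 1, KO 2. Every HSPC value lay below every mES value, but the lowest mES and the highest HSPC value were close. In mES cells the uncovered part was upstream of the gene, the peak beginning 0.150 to 0.360 kb before the start. Klf1 lies 200.5 kb from Lyl1 on the same chromosome, and these are separate loci with separate peaks.

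Lmo2, the bridging protein of the complex (ENSMUSG00000032698.15; mm10 chr2:103957986-103981878, plus strand), had little of either mark at its annotated 5′ start. H2AK119ub covered 0%, 22.7%, 0% and 0% of that window in the mES libraries and 0%, 0%, 15.4% and 0% in the HSPC libraries. H3K27me3 covered 23.3% and 21.4% of it in the mES WT libraries and 0% in the other 6. In mES cells the marks lay on both sides of this start. Upstream, the mean over the mES libraries for Lmo2 was 100% H2AK119ub in the 500-bp bin centred at -3750 bp and 94.4% H3K27me3 in the one at -4250 bp. The HSPC means in these bins were 100% H2AK119ub and 0% H3K27me3, so the upstream H2AK119ub was present in both cell types. At a second annotated start, 11.5 kb downstream, H3K27me3 covered 100% of the window in all 4 mES libraries and 70.8%, 38.7%, 4.60% and 0% in HSPC WT 1, WT 2, KO 1 and KO 2. The span as a whole was covered by H3K27me3 over 55.2%, 78.1%, 66.2% and 52.6% in mES cells and 9.27%, 10.1%, 4.19% and 0% in HSPCs, so the cell types were far apart. H2AK119ub on the span ranged from 33.9% to 47.0% in mES libraries and from 19.8% to 31.0% in HSPC libraries, again without overlap.

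**Figure D1:**
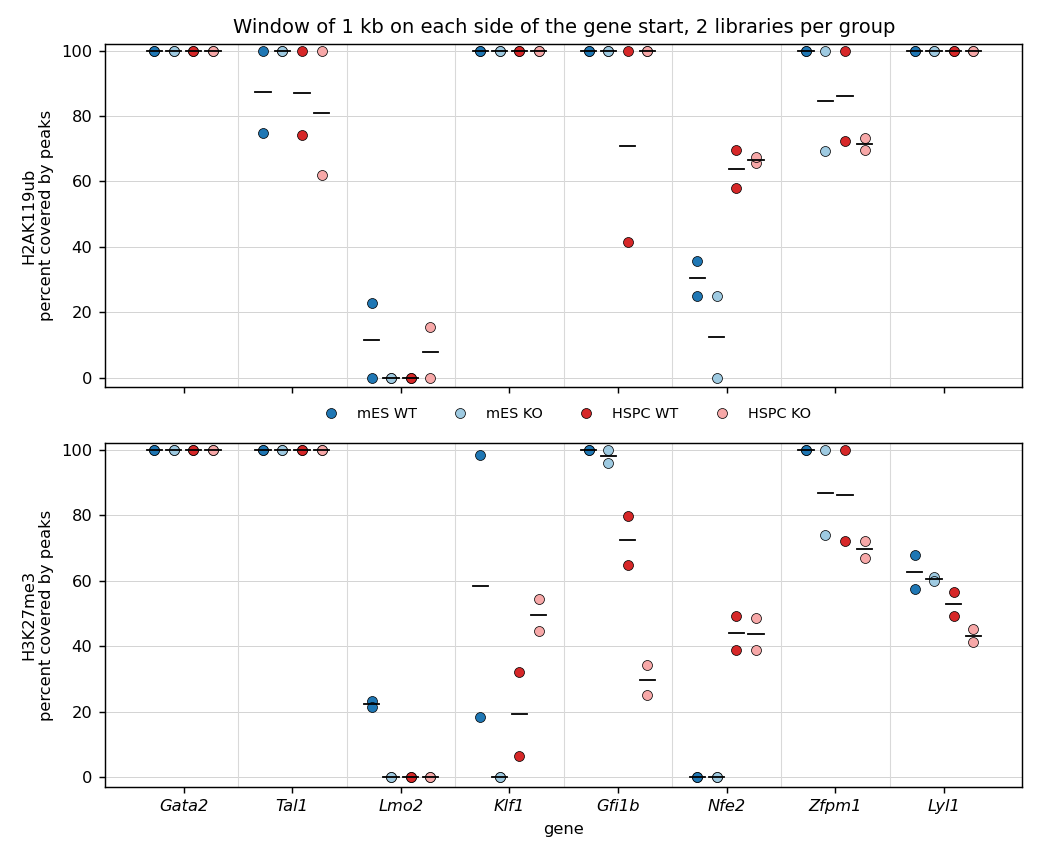
Percent of the window of 1 kb on each side of the gene start under peaks (y axis), for each of the 8 genes (x axis), in the 8 H2AK119ub libraries (top) and the 8 H3K27me3 libraries (bottom). Points are single libraries, lines the mean of the 2 libraries of a group. Gata2 sits at 100% in all 16 libraries, and Nfe2 is higher in all 4 HSPC libraries than in any mES library for both marks.

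Zfpm1, the GATA cofactor (ENSMUSG00000049577.15; mm10 chr8:122282141-122337251, plus strand), carried the widest domain of the 8. In 3 of the 4 mES H2AK119ub libraries the peak over its start was the widest of the whole list, at 132.4 kb in WT 1, 151.5 kb in WT 2 and 125.4 kb in KO 2, and in KO 1 it ranked 3 at 68.2 kb. In the HSPC H2AK119ub libraries the peak over the start was 37.4, 49.2, 9.51 and 24.8 kb wide, yet the span stayed covered over 96.0% to 99.0%, by several adjoining peaks. H3K27me3 did not keep that extent. It covered 97.8%, 99.0%, 97.1% and 84.2% of the span in mES WT 1, WT 2, KO 1 and KO 2 and 21.0%, 30.3%, 17.4% and 10.8% in the HSPC libraries, a mean difference of -74.7 percentage points, and only 0.934% of all genes had a lower one. What H3K27me3 was left in HSPCs lay mostly in the 5′-most of 4 equal stretches of the gene, covered over 25.7% to 61.5%, the other stretches being at 0.987% to 24.3%.

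A stretch just downstream of the Zfpm1 start was left out of the peaks in 8 of the 16 mouse libraries. In those libraries a single gap of 522 to 659 bases began at positions 15 to 105 from the start and ended at 573 to 673, and the rest of the window was covered. The gap was present in 1 of 4 mES and 3 of 4 HSPC libraries for H2AK119ub, and in 1 of 4 and 3 of 4 for H3K27me3. It also varied with genotype. The mES libraries with it were KO 1 for H2AK119ub and KO 2 for H3K27me3, and no mES WT library had it. The HSPC libraries with it were KO 1 and KO 2 for either mark, WT 1 for H2AK119ub and WT 2 for H3K27me3. Every window value under 100% at this gene came with this gap and no other. Since the lists hold no gap shorter than 499 bases, its true width is not resolved.

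Klf1, the red cell activator (ENSMUSG00000054191.8; mm10 chr8:84901928-84905291, plus strand), had H2AK119ub over its start in every mouse library, but not always H3K27me3. H2AK119ub covered 100% of its start window in all 8 mouse libraries, despite the 3 CpG in its promoter. H3K27me3 covered 18.3%, 98.5%, 0% and 0% of the same window in mES WT 1, WT 2, KO 1 and KO 2, and 6.45% to 54.4% in the HSPC libraries, of which WT 1 was the lowest and KO 1 and KO 2, at 44.6% and 54.4%, the highest. The mES WT replicates disagreed by far more than the 5.16 points between the means of the cell types. On the span H2AK119ub ranged from 75.2% to 100% in mES libraries and from 97.8% to 100% in HSPC libraries, and the groups overlapped.

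Gfi1b, the repressor (ENSMUSG00000026815.14; mm10 chr2:28609450-28621982, minus strand), had its start window covered over 100% by H2AK119ub in all 4 mES libraries and in 3 of 4 HSPC libraries, HSPC WT 1 being at 41.3%. H3K27me3 covered 100%, 100%, 100% and 96.2% of the window in the mES libraries and 65.0%, 79.8%, 25.0% and 34.3% in the HSPC libraries. Every HSPC value was below every mES value. Its span followed for H3K27me3, the mES libraries ranging from 43.8% to 61.9% and the HSPC libraries from 8.76% to 24.0%, while H2AK119ub on the span overlapped between the cell types, at 79.0% to 93.5% and 75.3% to 87.6%.

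Nfe2, the factor of late platelet formation (ENSMUSG00000058794.12; mm10 chr15:103248212-103258403, minus strand), had more of both marks at its annotated 5′ start in HSPCs than in mES cells. H2AK119ub covered 25.0%, 35.7%, 25.0% and 0% of its start window in mES WT 1, WT 2, KO 1 and KO 2 and 69.5%, 58.0%, 65.5% and 67.5% in the HSPC libraries. H3K27me3 covered 0% in all 4 mES libraries and 38.8%, 49.2%, 38.9% and 48.6% in the HSPC libraries. Neither mark overlapped between the cell types at this start. The peaks were short, at 0.776 to 0.985 kb for H3K27me3 in HSPCs, and none was left when only peaks of at least 1 kb were used. At the next annotated start, 2.96 kb into the gene, H3K27me3 covered 64.8% and 60.8% in mES WT and 0% in both mES KO libraries. There it covered 31.4% and 25.8% in HSPC WT and 0% in both HSPC KO libraries. Among WT libraries the direction at that start was thus the reverse, with less H3K27me3 in HSPCs.

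**Figure D2:**
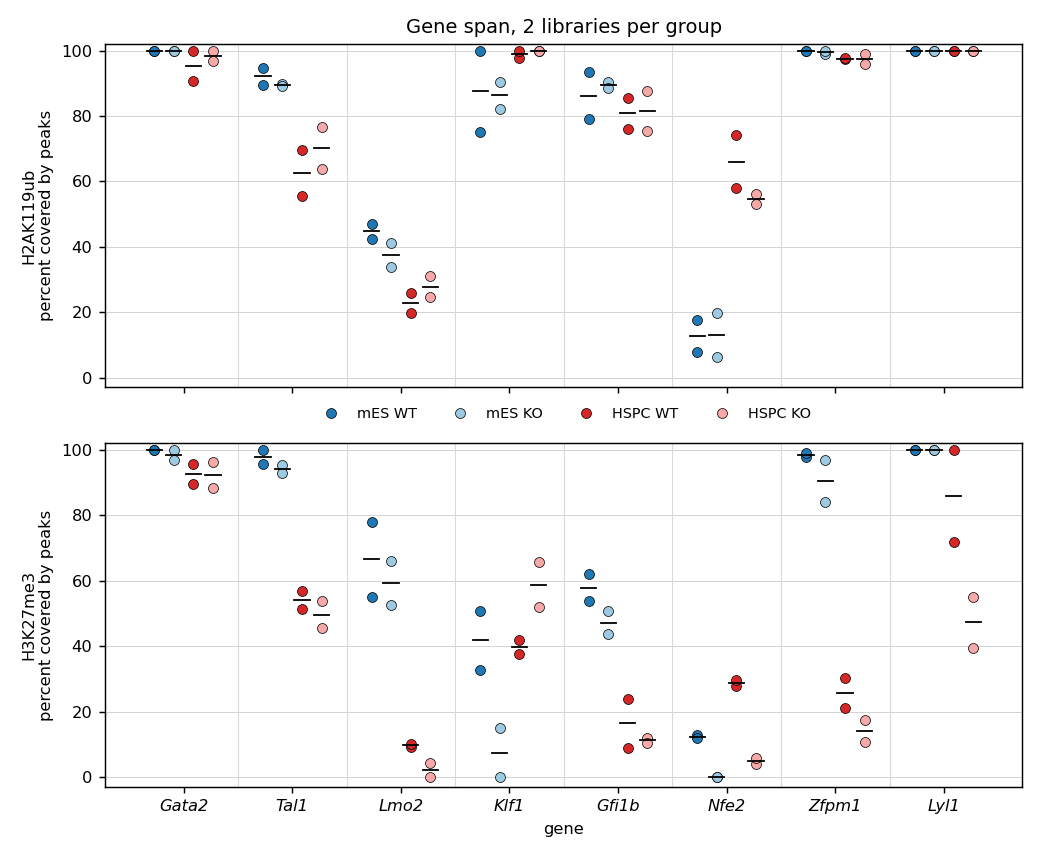
Percent of the gene span under peaks (y axis) for each of the 8 genes (x axis), in the 8 H2AK119ub libraries (top) and the 8 H3K27me3 libraries (bottom). Points are single libraries, lines the mean of the 2 libraries of a group. H3K27me3 on Tal1, Lmo2, Gfi1b and Zfpm1 falls from mES to HSPC with no overlap, whereas H2AK119ub on Zfpm1 and Lyl1 stays between 96.0% and 100%.

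The cell types were compared across all 8 libraries of a mark, with the 2 sets of 4 called different when they did not overlap. On the gene span, H3K27me3 was lower in HSPCs at 5 of the 8 factors (Gata2, Tal1, Lmo2, Gfi1b and Zfpm1) and higher at 0. Over all genes 44.4% were called in either direction and 17.3% as lower. The median difference of the 8 was -36.1 percentage points, against 0.119 over all genes. In the mES libraries the median span coverage was 68.4% to 86.9% for the 8 and 0% to 1.02% over all genes. The median gene thus had almost no H3K27me3 to lose, and the 8 were not compared with genes of like coverage in mES cells. Mean coverage went from 96.0% ± 2.92 (SD, n = 4) to 51.9% ± 4.88 at Tal1, from 63.0% ± 11.7 to 5.90% ± 4.72 at Lmo2, from 52.5% ± 7.52 to 13.8% ± 6.92 at Gfi1b and from 94.5% ± 6.92 to 19.9% ± 8.14 at Zfpm1. At Gata2 the difference was small, at -6.71 percentage points, and with 5 kb added on each side of the span, or with peaks within 1 kb joined, its groups overlapped. The means of Lyl1 differed by -33.4 percentage points and those of Klf1 by 24.7, both with overlapping groups.

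H2AK119ub on the span was lower in HSPCs at 2 factors (Tal1 and Lmo2) and higher at 1 (Nfe2), while 20.5% of all genes were lower, 20.9% higher and 41.5% called in either direction. The median difference of the 8 was -2.68 percentage points, against 0 over all genes. At Tal1 the mean went from 90.8% ± 2.53 (SD, n = 4) to 66.4% ± 9.02, and at Nfe2 from 12.8% ± 6.82 to 60.3% ± 9.50. The start windows of Gata2, Klf1 and Lyl1 were at 100% H2AK119ub in all 8 libraries and could not be called. Those of Gata2 and Tal1 were likewise at 100% for H3K27me3. At the start windows, H2AK119ub separated the cell types at 1 factor (Nfe2, higher) and was lower at 0, while 15.6% of all genes were higher, 8.58% lower and 24.1% called in either direction. H3K27me3 separated them at 3 factors (Nfe2 higher, Gfi1b and Lyl1 lower), while 22.8% of all genes were higher, 8.70% lower and 31.5% called in either direction, so the counts at the start windows were near or under the background. None of these 3 calls held under every alternative, and all were lost when a window was counted only as covered over at least 50% or not. With peaks within 1 kb joined, the Lyl1 difference turned to 19.8 percentage points and the groups of Gfi1b overlapped, at -40.1 points, while the Nfe2 call was lost with the mean over all annotated starts, at 13.5 points in place of 43.9.

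With libraries permuted within genotype, 36 arrangements are possible and the smallest two-sided exact permutation p is 0.0556, which all the members called above reached. The smallest adjusted p over all genes (Benjamini-Hochberg) was 0.116 to 0.199 in these 4 comparisons, and 0 genes had an adjusted p under 0.05 by this test. The number at an unadjusted p under 0.05 was also 0, since the design cannot reach it. Permuted freely over all 8 libraries, the smallest p was 0.0286 and the smallest adjusted p 0.0643 to 0.118.

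**Figure D3:**
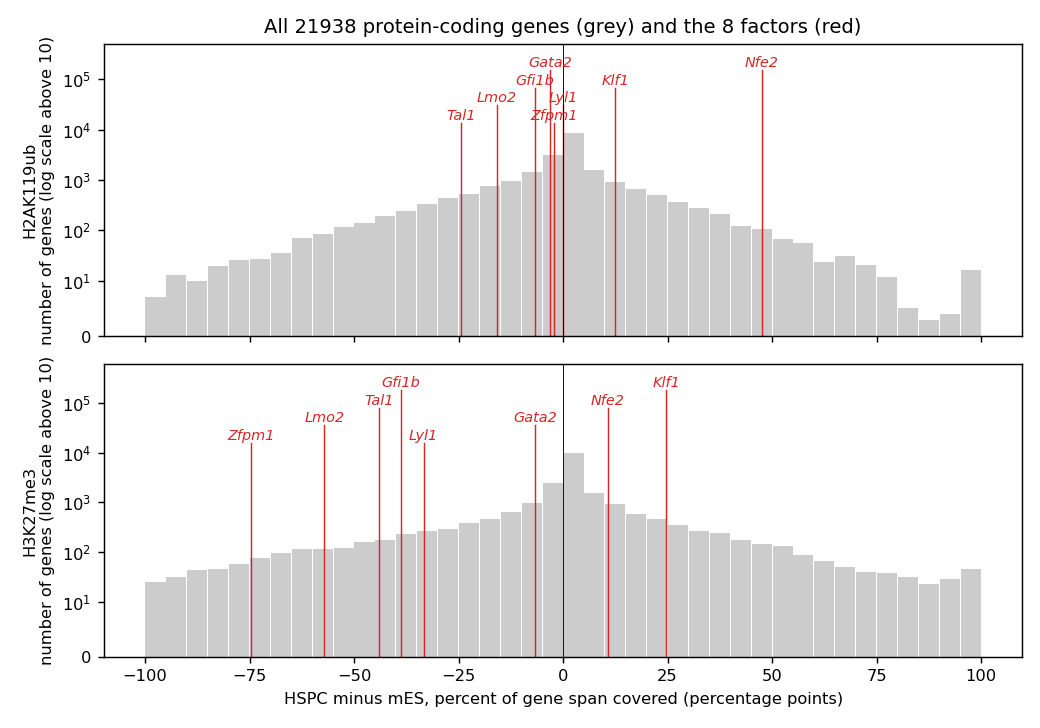
Number of genes (y axis, log scale above 10) by the difference in percent of gene span covered, HSPC minus mES, in percentage points (x axis), for H2AK119ub (top) and H3K27me3 (bottom). Grey bars are all 21938 protein-coding genes and red lines the 8 factors. For H3K27me3, 6 of the 8 lie to the left of 0 and Zfpm1 is the furthest out, at -74.7.

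The bases covered in both replicates of a group were used to ask whether the marks lay together. In mES WT cells, 100% of the H2AK119ub bases of Gata2, Tal1 and Lyl1 and 97.8% of those of Zfpm1 were also under H3K27me3. In HSPC WT cells the share was 98.8% at Gata2, 88.9% at Tal1, 71.9% at Lyl1, 12.3% at Zfpm1, 9.15% at Gfi1b and 0% at Lmo2. Zfpm1 in HSPC WT was under H2AK119ub alone over 84.0% of its span, and Gfi1b over 67.9%. Klf1 was so over 78.5%, with a share of 19.7%. Shares in mES WT cells were lower to begin with at Gfi1b, at 52.9%, and at Klf1, at 42.6%. At Tal1 the share in HSPC KO was 69.4%, and the part of its span under both marks went from 89.6% in mES WT to 36.5% in HSPC WT.

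**Figure D4:**
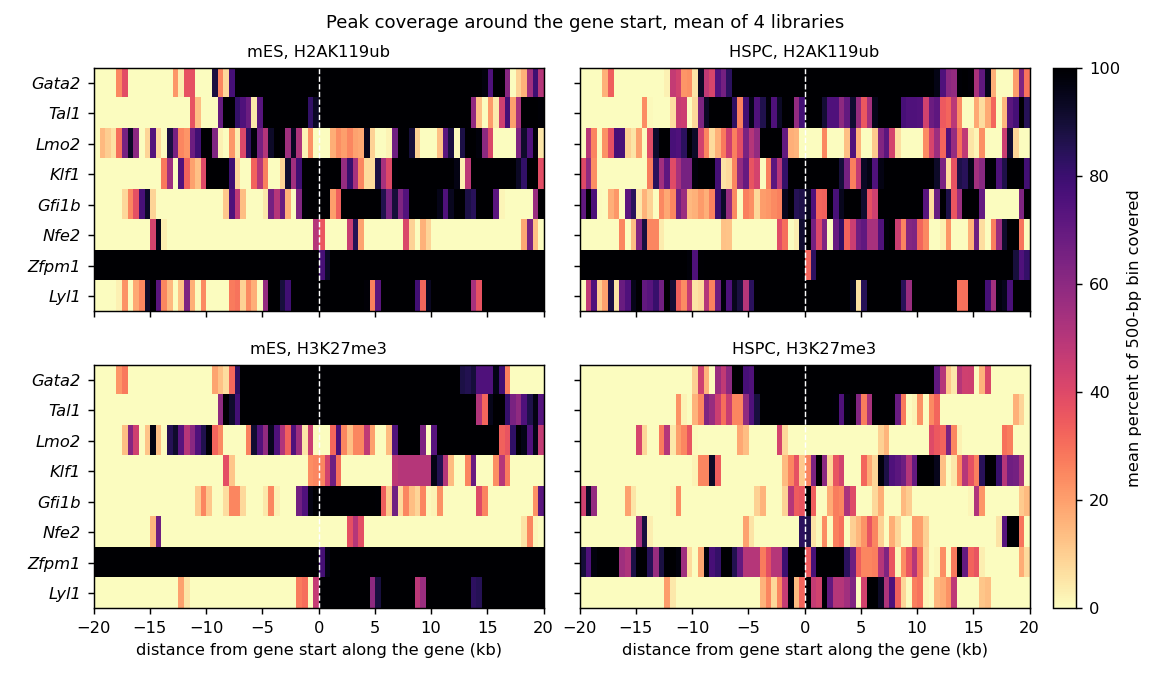
Mean percent of each 500-bp bin under peaks (colour, 0 to 100) against the distance from the gene start along the gene, in kb (x axis), for the 8 genes (rows), as the mean of 4 libraries per cell type and mark. The H3K27me3 domain over Zfpm1 fills the stretch shown in mES cells and is broken up in HSPCs, whereas the H2AK119ub domain is dark across nearly the whole stretch in both.

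Loss of Tet2 was compared within each cell type and mark, with 2 KO libraries against 2 WT libraries. In mES cells H3K27me3 on the span was lower in KO at 5 of the 8 factors (Tal1, Klf1, Gfi1b, Nfe2 and Zfpm1) and higher at 0, while 21.5% of all genes were lower, 5.37% higher and 26.9% called in either direction. Median span coverage in these libraries was 68.4% to 86.9% for the 8 and 0% to 1.02% over all genes. The median gene thus had almost nothing to lose, and genes of like coverage were not compared. The differences were -3.56 percentage points at Tal1, -7.78 at Zfpm1, -10.6 at Gfi1b and -12.3 at Nfe2. Klf1 differed most, from 41.8% ± 12.9 (SD, n = 2) to 7.45% ± 10.5. At the start windows 2 factors were lower (Lmo2 and Klf1) and 0 higher, while 3501 of the 21938 genes were lower, 1.90% higher and 17.9% called in either direction. The Klf1 difference of -58.4 points rests on mES WT 2, the other WT library being at 18.3%. The mES KO lists of H3K27me3 covered 214.5 and 149.4 Mb and the WT lists 188.9 and 232.5 Mb, and the part of list length in these calls was not tested beyond the equal-length lists, which gave the same count at the start windows.

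In HSPCs H3K27me3 on the span was lower in KO at 4 factors (Lmo2, Nfe2, Zfpm1 and Lyl1) and higher at 1 (Klf1), while 18.4% of all genes were lower, 14.9% higher and 33.3% called in either direction. Coverage of Nfe2 went from 27.8% and 29.6% in the WT libraries to 3.90% and 5.96% in the KO libraries, a wide gap beside the replicate spread. That of Lyl1 went from 71.9% and 100% to 55.2% and 39.5%, and that of Klf1 from 37.5% and 41.8% to 52.0% and 65.7%. At the start windows 3 factors were lower (Gfi1b, Zfpm1 and Lyl1) and 1 higher (Klf1), while 8.79% of all genes were lower, 9.68% higher and 18.5% called in either direction. The start-window call of Klf1 was lost with equal numbers of peaks, with peaks of at least 1 kb and with a window of 2 kb on each side. With peaks within 1 kb joined, the start-window differences of Zfpm1 (-16.5 points) and Lyl1 (-9.60 points) became 0. Gfi1b had the largest start-window difference of these, from 72.4% ± 10.5 (SD, n = 2) to 29.7% ± 6.57.

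Few of the factors were called for H2AK119ub. A start window at 100% in every library of a comparison could not be called. This held at Gata2, Klf1, Gfi1b and Lyl1 in mES cells and at Gata2, Klf1 and Lyl1 in HSPCs. At the start windows 0 of the 8 factors separated KO from WT in mES cells, where 10.2% of all genes were higher, 8.91% lower and 19.1% either, and 0 in HSPCs, where 18.8% were higher, 5.05% lower and 23.8% either. On the span 1 factor was lower in mES KO (Lmo2, -7.27 percentage points), against 30.2% of all genes called, and 1 was lower in HSPC KO (Nfe2, -11.5 points), where 9.40% of all genes were lower and 28.4% called in either direction. With 2 libraries against 2 there are 6 arrangements and the smallest two-sided exact permutation p is 0.333, so no comparison of genotypes could reach 0.05.

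In K562 the start windows of the orthologues ranged from free of H2AK119ub to wholly covered. KLF1 (ENSG00000105610.6; hg38 chr19:12884422-12887201, minus strand) had 100% and 94.1% of its start window covered in siControl and 100% in both siMBD6 libraries, and was the only one of the 8 covered over at least 94.1% in each. GFI1B (ENSG00000165702.15; hg38 chr9:132944000-132991687, plus strand) had 0% at its 5′ start in all 4 libraries. That window lies at the 5′ end of the annotated gene, and the first protein-coding start, 1.55 kb downstream, was also at 0%. Further starts of GFI1B went different ways. At the one 34.7 kb downstream, 46.1% and 70.1% of the window was covered in the siControl libraries and 0% in both siMBD6 libraries, with no overlap. At the start annotated 42.7 kb downstream, GFI1B was covered over 60.4%, 67.6%, 100% and 64.7% in siControl 1, siControl 2, siMBD6 1 and siMBD6 2. LMO2 had 0%, 25.0%, 25.0% and 25.0%, a single shortest peak where there was any.

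GATA2 and ZFPM1 in K562 had a mark that stopped short of the start. At GATA2 (ENSG00000179348.13; hg38 chr3:128479427-128493201, minus strand) the window was covered over 39.4%, 42.4%, 39.1% and 39.8%, and the covered part lay upstream: the last peak ended 130 to 217 bases before the start and nothing was called from there to the edge of the window. At ZFPM1 (ENSG00000179588.9; hg38 chr16:88453280-88537031, plus strand) the upstream peak ended 200 to 288 bases before the start and the window was covered over 35.6%, 38.1%, 40.0% and 38.2%, although 81.1% to 88.0% of the span was covered. The values of both genes varied little among libraries. Such a free start base was common in K562, in 43.5% to 50.1% of the genes whose window was touched, against 12.5% to 19.5% in the mouse libraries. LYL1 and NFE2 had peaks over the start itself in all 4 libraries, LYL1 covering 44.5%, 80.4%, 86.3% and 69.5% of the window.

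After siMBD6, 2 of the 8 start windows were higher and 0 lower, while 13.4% of all genes were higher, 2.20% lower and 15.6% called in either direction. TAL1 (ENSG00000162367.12; hg38 chr1:47216290-47232225, minus strand) went from 64.8% and 62.8% to 83.8% and 88.4%. In siControl a gap of 503 to 524 bases lay over the TAL1 start, and in both siMBD6 libraries a peak lay over it. With peaks within 1 kb joined, the TAL1 groups overlapped. ZFPM1 differed by 2.25 points, a call lost with a window of 2 kb on each side. GFI1B was counted at the 5′ end of the gene, not at the start 34.7 kb downstream, which was lower after siMBD6. Later starts of NFE2 went the other way. The one 3.13 kb downstream was at 0% in both siControl libraries and at 71.6% and 23.2% in siMBD6. The one 5.26 kb downstream went from 86.5% and 91.8% to 100% in both. The share over all annotated starts is not given. On the span TAL1, NFE2 and ZFPM1 were higher and 0 lower, against 34.6% of all genes higher, 1.28% lower and 35.9% called in either direction. NFE2 went from 38.8% and 42.4% to 62.9% and 59.4%. The siMBD6 lists also covered more, at 177.5 and 190.2 Mb against 132.2 and 132.1 Mb. Lists cut to equal numbers of peaks left the TAL1 and ZFPM1 start values the same. Such a cut does not equalise the length covered, so the part of covered length was not tested. No p under 0.333 was possible in this comparison by the exact permutation test.

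**Figure D5:**
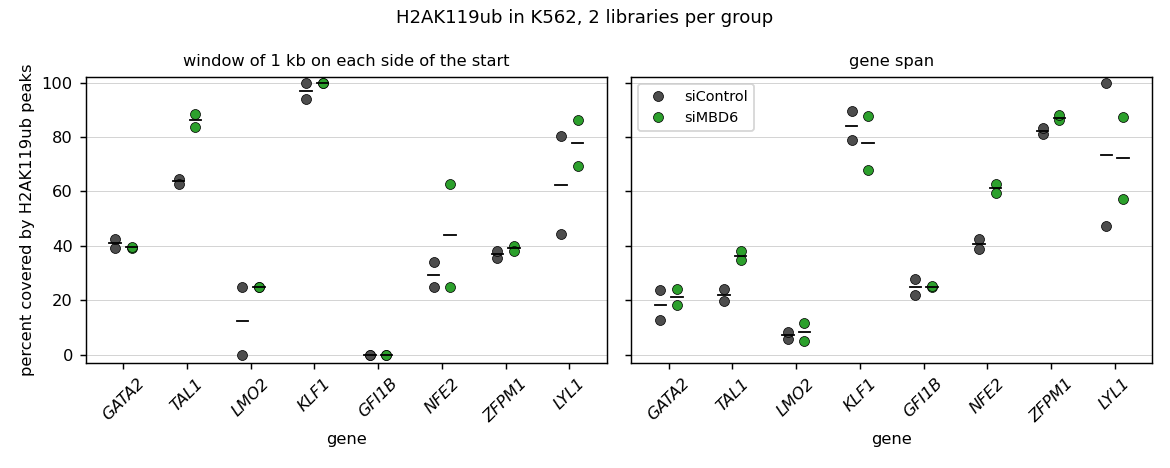
Percent covered by H2AK119ub peaks (y axis) in the start window (left) and the gene span (right) for the 8 human orthologues (x axis) in K562, with 2 siControl and 2 siMBD6 libraries as points and their mean as a line. TAL1 is higher in both siMBD6 libraries in both panels, and GFI1B is at 0% in the start window in all 4.

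Other genes of the pathway were counted by list. Of 12 partners of the 8 factors, H3K27me3 on the span was lower in HSPCs at 8 and higher at 3. Of 12 megakaryocyte genes it was lower at 7 and higher at 0, and of 13 erythroid genes lower at 5 and higher at 2, beside 17.3% lower and 27.1% higher over all genes. Median differences were -7.22 percentage points for partners, -32.3 for megakaryocyte genes and -3.80 for erythroid genes. At the start window Gp9, a subunit of the platelet receptor for von Willebrand factor, and Myb, a progenitor factor, went from 100% in each mES library to 0% in each HSPC library. The erythroid genes went both ways there, with Rhd at -70.1 points and Slc4a1, the anion exchanger of red cells, at 62.8. Of the 13 erythroid start windows, 3 were lower in HSPCs and 2 higher, beside 8.70% lower and 22.8% higher over all genes. Gata1, the partner GATA factor of mature cells, was free of H3K27me3 at its start in all but HSPC KO 2, where a single shortest peak gave 25.0%.

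H2AK119ub on the span was lower in HSPCs at 8 partners and higher at 2, at 4 and 0 of the 12 megakaryocyte genes, and at 1 and 2 of the 13 erythroid genes, beside 20.5% lower and 20.9% higher over all genes. At the start window of Runx1, a master factor of blood stem cells, it covered 24.8% to 45.7% in mES cells and 100% in all 4 HSPC libraries. In K562, 3 of 12 partner start windows and 4 of 12 megakaryocyte start windows were higher after siMBD6, and 0 of 14 erythroid ones, beside 13.4% of all genes higher, and 0 were lower in each list, beside 2.20%. Of 6 markers for other cells that the sort could hold, H3K27me3 on the span was lower in HSPCs at 3 and higher at 2, beside 17.3% lower and 27.1% higher over all genes. In the HSPC libraries 2 to 4 of these 6 spans were touched by a peak.

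The genes whose 32 values were nearest to those of each factor, by the mean absolute difference over both measures in the 16 mouse libraries, were Spata20 and Nol3 for Gata2, at 0.926 and 1.08 percentage points. They were Unc5a and Pdgfb for Tal1, Clec10a and Nutm1 for Lmo2, and Zmynd10 and Tmem86a for Lyl1. For the others they were Syt8 and Dok1 for Zfpm1, Stard10 and Efhd2 for Gfi1b, Nop53 and Rpl27 for Nfe2, and Ctxn1 and Lgals1 for Klf1. Klf1 had the least close neighbour, at 9.45 points, and 0 of the 16 genes named was another of the 8 factors.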

How the data were processed

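CUT&Tag peak lists of 20 libraries were used as deposited. The authors, per the labels and the methods of the study, used Trimmomatic 0.39 for trimming and Bowtie2 2.4.1 for alignment to mm10 or hg38 with a Drosophila spike-in, removed duplicates with Picard and called broad peaks per library with MACS2. HOMER 4.9 is listed with no role. The deposited files hold chromosome, start and end only, with no counts, scores or p-values. The labels of the samples gave each group and replicate number.

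Covered bases were computed in Python 3.11.15 with numpy 2.4.6 over merged peaks on assembled chromosomes, for protein-coding genes of GENCODE M21 (mm10) and v44 (hg38). Coordinates are 1-based. Reference sequences were of the same builds. A call is 2 sets of libraries that do not overlap. P-values come from two-sided exact permutation tests with Benjamini-Hochberg adjustment over all genes, and the scripts were tested on simulated data. Alternatives were another window, start or span, a minimum peak width, joined peaks, lists of equal length, single genotypes, left-out replicates and a replicate block, with a crossed block added after the data were seen. The 8 genes and all gene lists were chosen with earlier results of these data known. The genes named as most alike are the 2 nearest to each factor. The listed genes named are Gata1 and some of the 2 per list and mark with the largest difference at the start.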

Additional observations from a re-analysis of the deposited data

Results flagged for a closer look

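Klf1 was picked out because its H3K27me3 differed from WT in opposite directions in the 2 cell types. At the start window every mES KO library lay below every mES WT library, with a mean difference of -58.4 percentage points, and every HSPC KO library lay above every HSPC WT library, with a difference of 30.3. On the gene span the differences were -34.3 points in mES cells and 19.2 in HSPCs. The difference between the cell types was not tested. Across all genes, 2.04% showed opposite, non-overlapping differences in the 2 cell types at the start window and 4.38% on the span. The start-window difference in HSPCs was 17.8 points with lists cut to equal numbers of peaks. It was 7.36 points with a window of 2 kb on each side, and in both the groups overlapped. No value of the other 7 factors met this rule.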

How the results depend on the processing

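The counts of factors whose groups did not overlap moved with several choices. With KO libraries only, H3K27me3 separated the cell types at 8 spans and 5 start windows and H2AK119ub at 5 spans, in place of 5, 3 and 3. Using KO libraries only leaves fewer libraries per cell type and mark, so fewer values can overlap. The share over all genes in that setting is not given, so a wider difference in KO cannot be read from its counts. With a peak over at least 50% of the window counted as yes or no, the start-window counts were 0 for HSPC minus mES H3K27me3, 0 for mES KO H3K27me3, 1 for HSPC KO H3K27me3 and 0 for siMBD6. With peaks within 1 kb joined they were 1 for HSPC minus mES H3K27me3, 2 for HSPC KO H3K27me3 and 1 for siMBD6. With a window of 2 kb on each side they were 1 for mES KO H2AK119ub, 1 for HSPC KO H2AK119ub and 1 for siMBD6. With peaks of at least 1 kb it was 1 for mES KO H3K27me3. The H3K27me3 start-window difference of Lyl1 between cell types turned to 19.8 percentage points with joined peaks. The cause was not tested for any of these.

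Leaving out 1 library gave 1 to 1 factors for HSPC minus mES H2AK119ub start windows, 3 to 5 for its spans, 3 to 4 for H3K27me3 start windows and 5 to 6 for its spans. It gave 1 to 2 for mES KO H2AK119ub, 2 to 4 for mES KO H3K27me3, 1 to 2 for HSPC KO H2AK119ub, 4 to 5 for HSPC KO H3K27me3 and 3 to 4 for siMBD6, all at start windows. The span count of 5 for H2AK119ub arose without mES WT replicate 1, and the count of 4 for mES KO H3K27me3 without KO replicate 1. Counts of 4 for siMBD6 arose without siMBD6 replicate 2 and without either siControl replicate. With 1 library left in a group, fewer values can overlap.

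The replicate block gave 5 spans for HSPC minus mES H2AK119ub, 1 start window for HSPC KO H2AK119ub, and counts within 1.5 times of the main one elsewhere. The numbers share only a number: deviations of same-numbered libraries correlated at -0.300 to 0.0394. In mES H3K27me3, where the correlation was negative, the crossed replicate block called 2 factors, the same number as the block. Of the values of single genes, 894 stayed within 1 SD between replicates of the main value, 97 moved further and 1 turned. Read depth is unknown, so no counting error can be given.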
